A study of Mus musculus with 7 samples.

Results

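The mitochondrially encoded respiratory chain genes described here are 10 genes carried on mitochondrial DNA rather than on a nuclear chromosome. They are mt-Nd1, mt-Nd2, mt-Nd4, mt-Nd5 and mt-Nd6 of complex I, mt-Cytb of complex III, mt-Co1, mt-Co2 and mt-Co3 of complex IV, and mt-Atp6 of ATP synthase. They were taken by gene symbol from a table of 16476 genes, and all 10 were found. The table held 14 genes of the mitochondrial chromosome, of 37 that GENCODE M21 annotates on GRCm38. The respiratory chain passes electrons from NADH and succinate to oxygen and pumps protons across the inner mitochondrial membrane, and ATP synthase uses the resulting gradient to make ATP. Its complexes, apart from the all-nuclear complex II, are built from core subunits made inside the mitochondrion and from many subunits encoded in the nucleus. Mitochondrial DNA is transcribed from both strands into long precursors, which are cut, mostly at the tRNAs between the genes, into separate rRNAs, tRNAs and mRNAs.

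RNA was sequenced from bronchoalveolar lavage (BAL) cells, the cells washed out of the airspaces of the lung, 3 days after lipopolysaccharide (LPS, a bacterial cell wall component that provokes inflammation) was given into the trachea of C57BL/6 mice. The tested genotype was Netrin1loxp/loxp LysM Cre (knockout, 3 libraries) and the genotype it was set against was LysM Cre (control, 4 libraries). By their labels both groups carried the Cre recombinase and both received LPS, so no library is labelled as untreated or as free of Cre. Cre is driven from the lysozyme M locus, which is active in macrophages, monocytes and neutrophils, and Ntn1 encodes netrin-1, a secreted guidance protein. The samples had been depleted of neutrophils with antibodies. Nothing in the labels ties a library to its own mouse. The tests therefore weigh differences against the spread from library to library, which may be technical.

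The targeted gene was low in both groups. Ntn1 had 1, 0 and 1 reads in the knockout libraries, against 1, 4, 9 and 3 reads in the control libraries. Its normalized count averaged 0.639 ± 0.556 in knockout libraries (SD, n = 3) and 4.16 ± 2.86 in control libraries (SD, n = 4), a log2 difference of -1.53 that did not pass a 2-sided exact permutation test (p = 0.0571, where the smallest p that 35 splits allow is 0.0286). Lyz2, the gene of the Cre locus, split the control group. It had normalized counts of 936, 1052 and 909.7 in knockout libraries 1, 2 and 3, against 76927, 770.1, 721 and 118781 in control libraries 1, 2, 3 and 4. Whether control libraries 1 and 4 carry the same Cre locus as the other libraries was not tested. The counts of members and of listed genes are therefore also given without these 2 libraries, a fit in which 3 knockout libraries are set against 2.

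Some lists of cell type markers differed between the groups, and the sums of others overlapped. Over all genes tested limma called 10.4% higher and 11.3% lower, and small counts in lists this short are not read as a result. The summed normalized count of 10 natural killer cell markers ranged over 50062 to 56109 in knockout libraries and 10393 to 17167 in control libraries, and 10 of the 10 rose. That of 12 neutrophil markers ranged over 24171 to 72223 in knockout libraries and 16053 to 18548 in control libraries, with 7 of 12 higher. That of 12 monocyte and recruited macrophage markers ranged over 32114 to 43611 in knockout libraries and 46131 to 61567 in control libraries, with 2 higher and 8 lower. The sums of 10 alveolar macrophage markers overlapped, at 75674 to 127416 in knockout libraries and 59175 to 95223 in control libraries, and 0 of 10 were called by limma. T cell markers summed to 9475 to 12300 in knockout libraries and 7433 to 8939 in control libraries (3 of 10 higher), B cell markers to 533 to 834 in knockout libraries and 393 to 549 in control libraries (1 higher among 3 tested of 6), and lung epithelial markers to 878 to 1308 in knockout libraries and 477 to 579 in control libraries (7 of 10 higher). Erythroid genes summed to 136707, 10593 and 6936 in knockout libraries 1, 2 and 3, against 1254 to 26211 in control libraries (0 of 7 called). Alveolar macrophage markers were thus present in every library, and no marker on these lists was at 0 in all of them. The part of these cell types in the values below was not tested, and in these bulk samples fewer cells of a type and less RNA per cell cannot be told apart.

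Gene ends set what can be read from the table. mt-Nd6 is the one member on the minus strand (chrM:13552-14070, 519 bases), and its 3′ end overlaps that of mt-Nd5 (chrM:11742-13565, plus strand, 1824 bases) by 14 bases. The last 44 bases of each, 5′ to 3′ on its own strand, are shown because the comparison of genotypes turns on mt-Nd6. Capitals mark the shared stretch, at chrM:13522-13565 for mt-Nd5 and chrM:13552-13595 for mt-Nd6.
mt-Nd5: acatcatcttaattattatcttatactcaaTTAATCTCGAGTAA
mt-Nd6: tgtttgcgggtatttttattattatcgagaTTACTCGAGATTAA
Each ends in a complete TAA stop codon read through the capitals of its own strand. No source used here gives the strand setting of the counting, so reads of mt-Nd6 and reads antisense to it cannot be told apart with certainty.

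The transcripts of 3 members stop 1 base past their last full codon. As is known for mammalian mitochondria, the stop codon of such an mRNA is completed by the poly(A) tail. The last 31 bases of mt-Co3 (chrM:9360-9390), mt-Nd4 (chrM:11514-11544) and mt-Cytb (chrM:15258-15288) show this, with the leftover base in capitals.
mt-Co3: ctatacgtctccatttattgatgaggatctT
mt-Nd4: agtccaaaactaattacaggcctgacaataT
mt-Cytb: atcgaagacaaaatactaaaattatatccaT
The base composition of the members followed their strand. mt-Nd6 held 28.1% G and 5.97% C, while the 9 members on the plus strand held 7.996% to 16.1% G and 23.8% to 27.8% C. All sequences are those of the GENCODE M21 transcripts on GRCm38.

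Per length, the 10 members fell into 7 abundant genes and 3 scarce ones. As mean normalized count per kilobase over the 7 libraries, mt-Co1, the catalytic core of cytochrome c oxidase, stood at 60776 (range 55802 to 65735). mt-Cytb, the cytochrome b of complex III, followed at 27243 (range 22340 to 32371). The complex I subunits came next, mt-Nd1 at 24421, mt-Nd5 at 14195, mt-Nd2 at 14017, mt-Nd6 at 10929 and mt-Nd4 at 10178. mt-Co2, which carries the copper site that takes electrons from cytochrome c, stood at 71.6 (range 45.3 to 97.8). mt-Co3, the third core subunit of complex IV, stood at 58.3 (range 31.6 to 76.3), and mt-Atp6, part of the proton channel of ATP synthase, at 41.2 (range 18.2 to 57.9). In this order the ranges of neighbours met, except between mt-Co1 and mt-Cytb, between mt-Nd1 and mt-Nd5 and between mt-Nd4 and mt-Co2. mt-Co1 alone made up 45.0% of the summed normalized count of the members.

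The 3 scarce members are those whose sequence is repeated almost whole in the nuclear genome. Of all 75-base windows of a gene, the share found unaltered in a transcript of a nuclear gene was 99.5% for mt-Co2, 99.5% for mt-Atp6 and 99.9% for mt-Co3. It was 61.5% for mt-Nd4, 39.8% for mt-Co1, 5.71% for mt-Nd2 and 1.66% for mt-Nd5, and 0 for mt-Nd1, mt-Nd6 and mt-Cytb. The longest unaltered copies lie side by side on the minus strand of chromosome 1. Gm28439 (chr1:24611535-24612410) matched 876 bases of mt-Nd4, Gm28437 (chr1:24613189-24613971) matched 783 bases of mt-Co3, Gm10925 (chr1:24613974-24614651) matched 678 bases of mt-Atp6 and Gm28661 (chr1:24614885-24615565) matched 681 bases of mt-Co2, each with 0 mismatches. Gm29216 (chr1:24615706-24616197) matched 492 bases of mt-Co1 with 6 mismatches. Less similar copies lie elsewhere, among them Gm13340 on chromosome 2 (1545 bases of mt-Co1 with 37 mismatches) and Gm13339 on chromosome 2 (510 bases of mt-Nd2 with 17 mismatches).

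The first 60 bases of mt-Co2 (chrM:7013-7072) and of Gm28661 (chr1:24615506-24615565) show 2 genes that no read of this stretch can separate.
mt-Co2: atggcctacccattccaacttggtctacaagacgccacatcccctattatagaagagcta
Gm28661: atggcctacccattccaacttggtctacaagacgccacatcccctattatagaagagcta
In mt-Co1 the 6 differences from Gm29216 all fall in the first 60 bases of the copy (mt-Co1 chrM:6381-6440, Gm29216 chr1:24616138-24616197), and capitals mark them.
mt-Co1: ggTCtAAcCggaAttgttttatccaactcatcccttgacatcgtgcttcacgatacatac
Gm29216: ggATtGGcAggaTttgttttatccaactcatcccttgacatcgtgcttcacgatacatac
Counted from 1 at the first base of mt-Co1, with its base first, they are T1056A, C1057T, A1059G, A1060G, C1062A and A1066T. The copies were themselves scarce in the table, with means over the 7 libraries of 53.0 normalized counts for Gm28661, 53.4 for Gm28437, 71.1 for Gm10925, 28.0 for Gm28439 and 61.4 for Gm29216. No source used here gives the read length or the rule for reads that match several places, and the part of these copies in the low values of mt-Co2, mt-Co3 and mt-Atp6 was not tested.

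**Figure D1:**
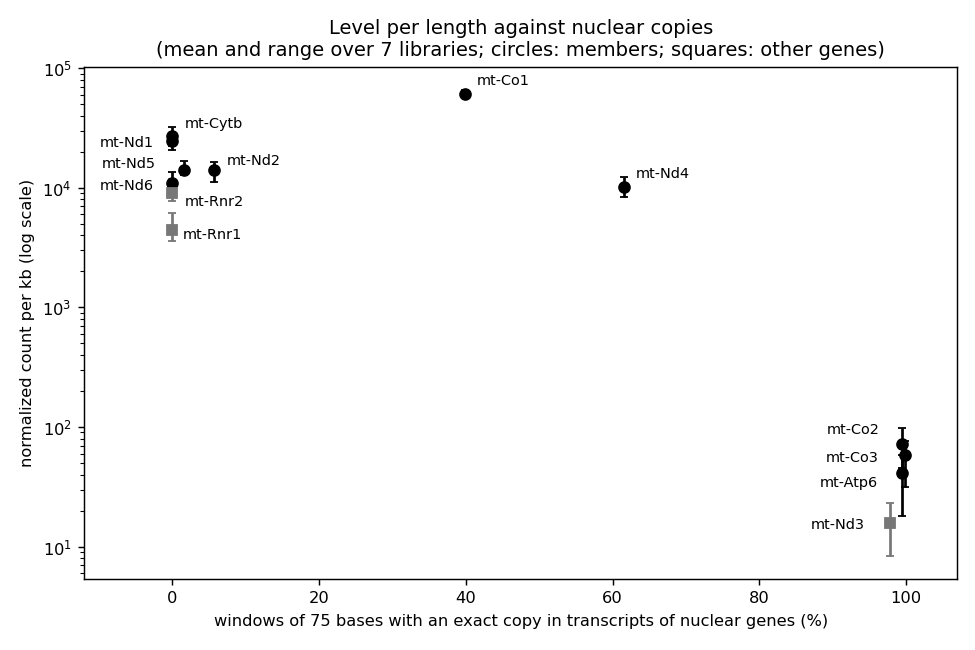
Level of each mitochondrially encoded gene (normalized count per kb, log scale, mean with the range over 7 libraries) against the percent of its 75-base windows that occur unaltered in transcripts of nuclear genes. Circles are the 10 respiratory chain genes and squares are mt-Rnr1, mt-Rnr2 and mt-Nd3. mt-Co2, mt-Co3 and mt-Atp6, with 99.5% or more of windows copied, sit between 41.2 and 71.6 per kb, and the other 7 circles at 10178 or above.

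Dividing the count of each gene by its uncopied windows in place of its length changed the order among the abundant members. This assumes that no read from a copied stretch was counted, which the sources do not state. Per 1000 uncopied windows of 75 bases, mt-Co1 had a mean normalized count of 106100, mt-Cytb 29127, mt-Nd4 27939, mt-Nd1 26467, mt-Nd2 16007, mt-Nd5 15044 and mt-Nd6 12746. mt-Nd4 thus stood between mt-Cytb and mt-Nd1 by this measure, and below the other 6 abundant members per length, and the order was the same with windows of 50 and of 100 bases. No such value is given for the 3 scarce members, which have 1 to 3 uncopied windows.

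The members took a small share of the reads counted in each library. The sources do not say whether reads from stretches with nuclear copies were counted. The part of those stretches in these shares was not tested. Of all reads assigned to genes, 1.83%, 1.97% and 1.69% fell in the 10 members in knockout libraries 1, 2 and 3, against 1.79%, 1.52%, 1.62% and 1.61% in control libraries 1, 2, 3 and 4. The groups overlapped, since control library 1 lay above knockout library 3. The mean was 1.83% ± 0.139 in knockout libraries (SD, n = 3) and 1.64% ± 0.113 in control libraries (SD, n = 4). Libraries held between 9903284 and 13353733 reads, and the exact 95% interval of each share reached at most 0.00785 percentage points to either side, for counting error only.

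Between genotypes, 1 of the 10 members, mt-Nd6, rose in knockout cells and 0 fell. The count rests on limma on log2(normalized count + 1) over 12963 genes with a mean of at least 10, where a call is a Benjamini-Hochberg adjusted p under 0.05. In the same fit 21.7% of all genes tested were called, 10.4% higher and 11.3% lower, so 1 of 10 is near the share found over all genes. All 10 members had a positive log2 fold change, from 0.04 for mt-Co1 to 0.68 for mt-Atp6, with a median of 0.26. Over all genes tested the median was 0.01 and 51.9% were positive. The members come from 1 genome and shared precursors, so their directions are not independent observations. The knockout libraries lay above every control library for 2 members, mt-Nd5 and mt-Nd6, and 17.4% of all genes tested were without overlap in this direction. With edgeR on the recovered reads 1 member rose (10.5% of all genes tested), and with DESeq2 2 rose, mt-Nd5 and mt-Nd6 (10.9% of all genes tested). The count was 0 without knockout library 2, without control library 2 and without control library 4, and 0 with control libraries 1 and 4 both left out.

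**Figure D2:**
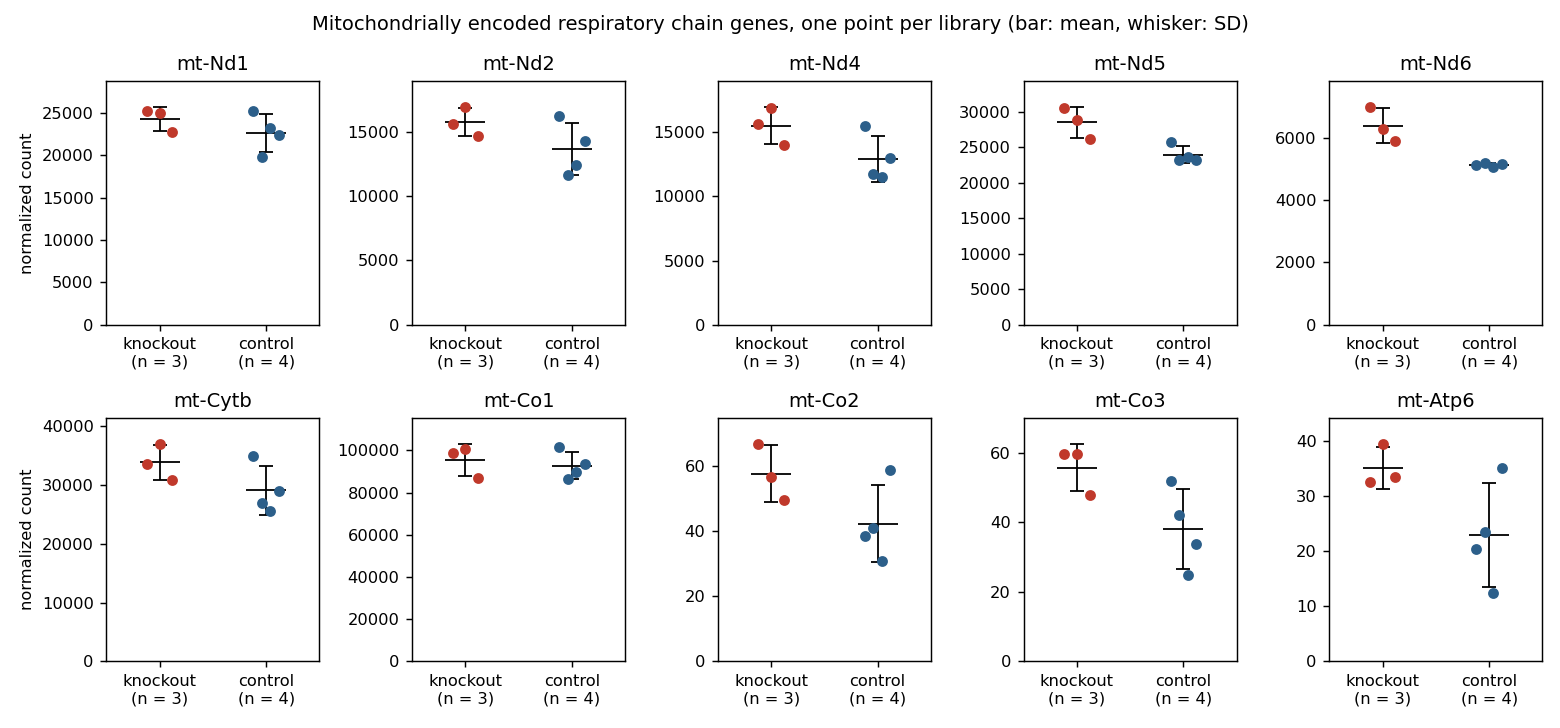
Normalized count of each of the 10 members in every library, with knockout libraries (n = 3, red) left of control libraries (n = 4, blue). Bars are means and whiskers are SD. Only for mt-Nd5 and mt-Nd6 do all knockout points lie above all control points, and the control points of mt-Nd6 lie within 5066 to 5180.

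mt-Nd6, a membrane subunit of complex I, was higher in knockout cells. Its normalized count was 6987, 6289 and 5886 in knockout libraries 1, 2 and 3, against 5145, 5180, 5066 and 5150.0 in control libraries 1, 2, 3 and 4. Every knockout library exceeded every control library. The mean was 6388 ± 557 in knockout libraries (SD, n = 3) and 5135 ± 48.9 in control libraries (SD, n = 4), a log2 fold change of 0.31 (SE 0.07, limma adjusted p = 0.0201), or 1.24-fold. The control libraries differed from each other by less than counting alone would give, with an SD of 48.9 where sampling of reads predicts 72.9, while the knockout SD of 557 was above its predicted 78.4. mt-Nd6 missed the threshold without knockout library 2 (adjusted p = 0.0603), without control library 2 (adjusted p = 0.0519) and without control library 4 (adjusted p = 0.0533). Over the 7 fits that leave out 1 library, its log2 fold change ranged from 0.24 to 0.37. The authors' deposited table gives a log2 fold change of 0.30 and an adjusted p of 0.00199 for mt-Nd6.

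mt-Nd5, the largest of the mitochondrially encoded complex I subunits and a part of its proton-pumping arm, missed the threshold. It had 30459, 28777 and 26178 normalized counts in knockout libraries 1, 2 and 3, against 25776, 23223, 23631 and 23193 in control libraries 1, 2, 3 and 4. The groups did not overlap, but knockout library 3 lay close to control library 1. The mean was 28472 ± 2157 in knockout libraries (SD, n = 3) and 23956 ± 1230 in control libraries (SD, n = 4), a log2 fold change of 0.25 (SE 0.10, limma adjusted p = 0.108). Of the alternatives tried, DESeq2 on the recovered reads alone called it (adjusted p = 0.0202). The authors' deposited table also lists mt-Nd5 below 0.05, with an adjusted p of 0.0260.

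The other 3 complex I members overlapped between genotypes. mt-Nd4, a further subunit of the proton-pumping arm, had 15614, 16905 and 14003 normalized counts in knockout libraries 1, 2 and 3, against 15456, 11718, 11491 and 12994 in control libraries 1, 2, 3 and 4. Control library 1 was the one control above knockout library 3, and the log2 fold change was 0.27 (SE 0.12, limma adjusted p = 0.150). mt-Nd2, also in the membrane arm, ranged over 14696 to 16915 in knockout libraries and 11664 to 16195 in control libraries, with a log2 fold change of 0.22 (SE 0.12, limma adjusted p = 0.245). mt-Nd1, which lies next to the quinone site, ranged over 22712.5 to 25234 in knockout libraries and 19798 to 25244.5 in control libraries, and its log2 fold change was 0.10 (SE 0.11, limma adjusted p = 0.529). For each of these 3 genes a difference of the size seen was not detectable beyond the spread between libraries.

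**Figure D3:**
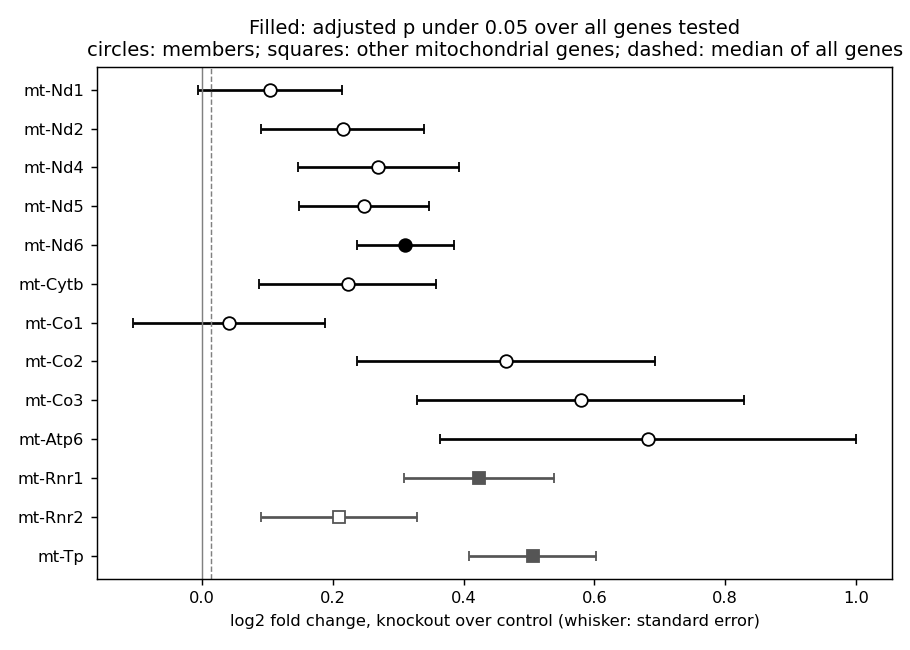
Log2 fold change of knockout over control for the 10 members (circles) and for mt-Rnr1, mt-Rnr2 and mt-Tp (squares), with the standard error. Filled symbols have a limma adjusted p under 0.05 over all genes tested (mt-Nd6, mt-Rnr1 and mt-Tp), the solid line is 0 and the dashed line is the median of all genes tested, 0.01. All 13 symbols lie right of both lines.

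Since mt-Nd6 and mt-Nd5 end against each other on opposite strands, their ratio was taken within each library, free of any library scaling. The strand setting of the counting is not given, so the ratio compares the 2 genes as counted and may not compare the strands. It was chosen with an earlier result for mt-Nd6 known. mt-Nd6 amounted to 22.9%, 21.9% and 22.5% of mt-Nd5 in knockout libraries 1, 2 and 3, against 19.96%, 22.3%, 21.4% and 22.2% in control libraries 1, 2, 3 and 4. The ranges overlapped, with control library 1 the lowest. The mean was 22.4% ± 0.545 in knockout libraries (SD, n = 3) and 21.5% ± 1.08 in control libraries (SD, n = 4), a log2 difference of 0.06 that did not pass the 2-sided exact permutation test (p = 0.257, smallest possible p = 0.0286). Leaving out each library in turn gave log2 differences of 0.03 to 0.08. The ratio thus gave no difference between genotypes beyond the spread of the libraries.

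mt-Cytb and mt-Co1, the 2 most abundant members, overlapped between genotypes. mt-Cytb had 33608, 37032.5 and 30930.4 normalized counts in knockout libraries 1, 2 and 3, against 35040.2, 26960, 25556.5 and 29033 in control libraries 1, 2, 3 and 4. Control library 1 lay above 2 of the knockout libraries, and the log2 fold change was 0.22 (SE 0.14, limma adjusted p = 0.266). mt-Co1 had 98889, 100739 and 86721 normalized counts in knockout libraries, against 101560, 86214.5, 89861 and 93303 in control libraries, in the same order. Here the highest library was a control, and the log2 fold change was 0.04 (SE 0.15, limma adjusted p = 0.863). It turned to -0.032 when the knockout libraries were set against control libraries 1 and 4 alone.

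The 3 scarce members, mt-Co2, mt-Co3 and mt-Atp6, had the largest fold changes and the widest errors. mt-Co3 had 59, 62 and 53 reads in knockout libraries 1, 2 and 3, against 51, 43, 28 and 27 reads in control libraries 1, 2, 3 and 4. Its normalized count averaged 55.8 ± 6.84 in knockout libraries (SD, n = 3) and 38.1 ± 11.5 in control libraries (SD, n = 4), a log2 fold change of 0.58 (SE 0.25, limma adjusted p = 0.130). mt-Atp6 had 32, 41 and 37 reads in knockout libraries, against 20, 24, 14 and 28 reads in control libraries, and its log2 fold change was 0.68 (SE 0.32, limma adjusted p = 0.157). mt-Co2 had 66, 59 and 55 reads in knockout libraries, against 38, 42, 35 and 47 reads in control libraries, and its log2 fold change was 0.47 (SE 0.23, limma adjusted p = 0.176). In normalized counts each of the 3 genes overlapped between genotypes, since control library 1 for mt-Co3 and control library 4 for the other two exceeded the lowest knockout library. In knockout libraries counting error was a large part of their spread, with SDs of 0.651 to 1.16 times those that sampling of reads predicts. In control libraries the SDs were 1.76 to 1.90 times the predicted ones, so the spread there went beyond counting.

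The chromosome 1 copies gave values on a like scale. Gm10925, the copy of mt-Atp6, averaged 83.2 ± 7.22 normalized counts in knockout libraries (SD, n = 3) and 62.0 ± 4.75 in control libraries (SD, n = 4), with a log2 fold change of 0.42 (limma adjusted p = 0.0535). Gm28439, the copy of part of mt-Nd4, averaged 33.9 ± 4.34 in knockout libraries and 23.5 ± 6.85 in control libraries (log2 fold change 0.55, limma adjusted p = 0.154). The fold changes of Gm28661, the copy of mt-Co2, and of Gm28437, the copy of mt-Co3, were 0.08 and 0.03 on the log2 scale, against 0.47 and 0.58 for the genes they match. Reads of such identical pairs cannot be assigned with certainty, so the values of mt-Co2, mt-Co3 and mt-Atp6 are uncertain.

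Among the RNAs that mitochondrial DNA encodes outside the members, mt-Tp and mt-Rnr1 rose in knockout cells. mt-Tp, the proline tRNA, is the other gene in the table from the minus strand (chrM:15356-15422). As for mt-Nd6, reads of mt-Tp and reads antisense to it cannot be told apart with certainty, since the strand setting is not given. The 67 bases of mt-Tp are shown whole because it gave the lowest adjusted p on the mitochondrial chromosome.
mt-Tp: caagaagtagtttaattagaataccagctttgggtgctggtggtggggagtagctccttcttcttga
Nothing is in capitals here. mt-Tp had 422, 350.0 and 341 normalized counts in knockout libraries 1, 2 and 3, against 246, 270.1, 272 and 252 in control libraries 1, 2, 3 and 4. Every knockout library lay above every control library. The log2 fold change was 0.51 (SE 0.10, limma adjusted p = 0.00867), and mt-Tp was called in each of the 7 fits that leave out 1 library but missed the threshold without control libraries 1 and 4 (adjusted p = 0.0702). mt-Rnr1, the 12S rRNA of the small mitochondrial ribosomal subunit (chrM:70-1024), averaged 4935 ± 892 in knockout libraries (SD, n = 3) and 3643 ± 161 in control libraries (SD, n = 4), a log2 fold change of 0.42 (SE 0.11, limma adjusted p = 0.0310). It missed the threshold in 5 of those 7 fits, without knockout library 1 or 2 or control library 2, 3 or 4, with adjusted p up to 0.0851, and without control libraries 1 and 4 (adjusted p = 0.100). mt-Rnr2, the 16S rRNA (chrM:1094-2675), had 18600, 13889 and 13873 in knockout libraries 1, 2 and 3, against 13730.3, 12204, 13540.2 and 13510.1 in control libraries 1, 2, 3 and 4. Its groups did not overlap, yet 2 knockout libraries lay just above the highest control, and the log2 fold change of 0.21 (SE 0.12, limma adjusted p = 0.237) was not called. mt-Nd3, a complex I subunit with 97.8% of its windows copied, averaged 5.83 ± 2.25 in knockout libraries (SD, n = 3) and 5.18 ± 1.87 in control libraries (SD, n = 4) and was too low to be tested.

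**Figure D4:**
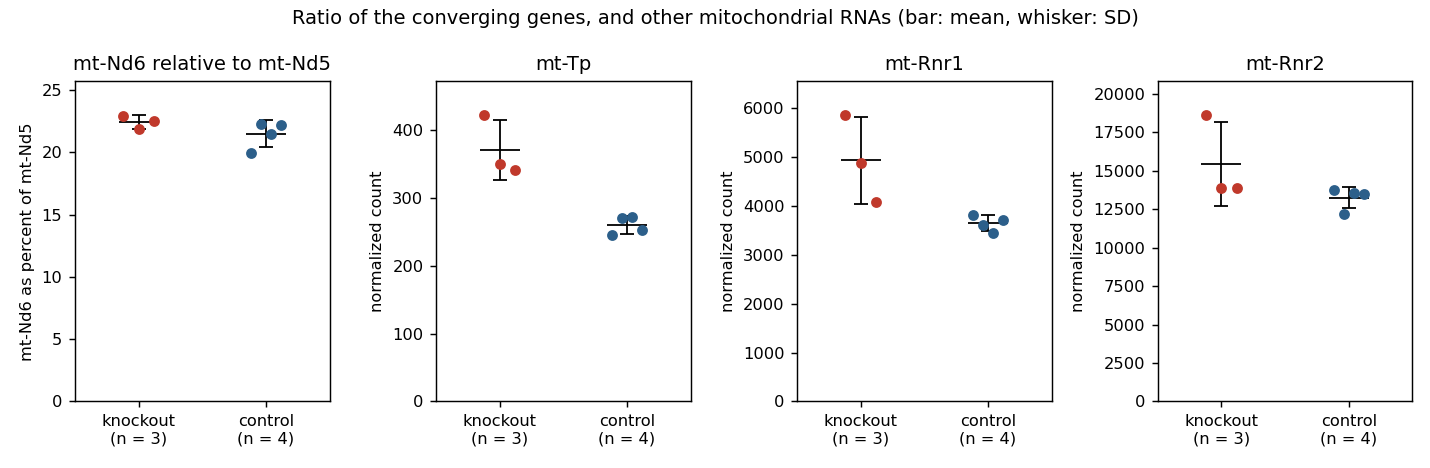
mt-Nd6 as percent of mt-Nd5, and the normalized counts of mt-Tp, mt-Rnr1 and mt-Rnr2, in every library, with knockout (n = 3) left of control (n = 4). Bars are means and whiskers are SD. The ratio overlaps between genotypes (21.9% to 22.9% in knockout and 19.96% to 22.3% in control libraries), while mt-Tp separates them (341 to 422 in knockout and 246 to 272 in control libraries).

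The rRNAs and tRNAs lack the long poly(A) tails of nuclear mRNAs, and the libraries were made with an mRNA kit. As a side measure, 2 nuclear RNAs without such a tail were high enough to be tested, the histone gene Hist1h4i (log2 fold change 0.56, limma adjusted p = 0.221) and Rn7sk, a regulator of RNA polymerase II (log2 fold change 0.10, limma adjusted p = 0.847). Of the 30 RNAs on that list 7 were in the table, and 0 of the 2 tested were called. The part of poly(A) selection in the values of mt-Tp, mt-Rnr1 and the members, mt-Nd6 among them, was not tested.

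The libraries kept a similar rank across members. Control library 1 was the highest control for 7 of the 10 members and control library 3 the lowest for 6, while knockout library 3 was the lowest knockout for 9. All 3 knockout libraries exceeded control library 2 for 10 members, control library 3 for 8, control library 4 for 7 and control library 1 for 4. Across the 7 libraries, Pearson's r of log2 values between pairs of the 7 abundant members ranged from 0.39 to 0.99 with a median of 0.80 over 21 pairs, the highest being mt-Nd4 with mt-Cytb at 0.99 and the next 2 mt-Nd2 with mt-Nd4 at 0.96 and mt-Nd2 with mt-Cytb at 0.95. mt-Nd5 with mt-Nd6 reached 0.94. Between abundant and scarce members the median was 0.59. These r values describe 7 libraries, which also share their scaling and depth.

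The choice of control libraries moved the fold changes of the members by more than any rescaling did. Against control libraries 2 and 3 alone, the log2 fold changes of the 10 members ranged from 0.11 to 0.99 with a median of 0.37, and all 10 were positive. Against control libraries 1 and 4 alone they ranged from -0.032 to 0.40 with a median of 0.17, and 9 were positive. In each of these fits 0 members were called. Under the 3 other scalings tried the median stayed between 0.26 and 0.29.

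The nuclear genes that serve mitochondrial DNA and RNA gave few calls. Over all genes tested 10.4% were called higher and 11.3% lower, and these lists are too short to set against those shares. Of 10 genes of mitochondrial transcription 0 were called in either direction. Chosen for their role and not for their values, Polrmt, the mitochondrial RNA polymerase, had a log2 fold change of -0.05 (limma adjusted p = 0.733) and Tfam, which packs mitochondrial DNA and starts its transcription, one of 0.19 (limma adjusted p = 0.125). Of 10 genes of mitochondrial DNA replication and maintenance 0 rose and 2 fell. They were Polg, the catalytic subunit of the mitochondrial DNA polymerase (639.6 ± 18.5 normalized counts in knockout and 755 ± 36.9 in control libraries, log2 fold change -0.24, limma adjusted p = 0.0356), and Dna2, a nuclease and helicase (log2 fold change -0.24, limma adjusted p = 0.0493). Of 19 tested genes of mitochondrial RNA processing and stability 1 fell, Lrpprc, which binds and stabilizes mitochondrial mRNAs (log2 fold change -0.25, limma adjusted p = 0.0310). Polg was called in 2 of the 7 fits that leave out 1 library, Lrpprc in 1 and Dna2 in 0, and without control libraries 1 and 4 none of the 3 was called (adjusted p of 0.165 to 0.193). The medians of these 3 lists were 0.19, -0.12 and 0.01.

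Among 7 tested regulators of mitochondrial biogenesis 2 fell and 0 rose, with a median of -0.06. Over all genes tested 11.3% were called lower, so this count in a list of 7 genes is not read as a result. Pprc1, a coactivator of nuclear genes for mitochondrial proteins, averaged 405 ± 73.8 normalized counts in knockout libraries (SD, n = 3) and 585 ± 17.2 in control libraries (SD, n = 4), with a log2 fold change of -0.54 (SE 0.12, limma adjusted p = 0.0146). Ppargc1b, its relative PGC-1 beta, averaged 87.4 ± 14.3 in knockout libraries and 139 ± 24.5 in control libraries (log2 fold change -0.66, SE 0.17, limma adjusted p = 0.0262). Pprc1 was called in each of the 7 fits that leave out 1 library and Ppargc1b in 3 of them. Without control libraries 1 and 4 it was Ppargc1b that was called (adjusted p = 0.0409) and Pprc1 that was not (adjusted p = 0.0933). Ppargc1a, or PGC-1 alpha, a further coactivator of the family, was below the filter with a mean of 7.88 normalized counts, and was singled out after its values were seen. It had 12, 21 and 21 reads in knockout libraries 1, 2 and 3, against 2, 0, 2 and 0 reads in control libraries 1, 2, 3 and 4, without overlap. With no filter its log2 fold change was 3.38 (SE 0.53, limma adjusted p = 0.00344), and it passed the filter and was called higher without control libraries 1 and 4 (adjusted p = 0.0231). Of 12 genes of mitochondrial translation and 11 mitochondrial chaperones and proteases 0 were called, with medians of 0.03 and -0.03.

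The nuclear-encoded partners of the members, the subunits of the same complexes and of complex II, gave 7 genes that rose and 0 that fell of 78 tested. The count that rose is near the 10.4% called higher over all genes tested, of which 11.3% were called lower. The median log2 fold change of the subunits was 0.13, with 69 of 78 positive. Over all genes tested the median was 0.01 and 51.9% were positive. The shared direction of the subunits was not tested. In complex I, 1 of 36 rose, the accessory subunit Ndufb11 (log2 fold change 0.42, SE 0.08, limma adjusted p = 0.00910). In complex III, 2 of 9 rose, the Rieske iron-sulfur protein Uqcrfs1 (log2 fold change 0.30, limma adjusted p = 0.0147) and the hinge protein Uqcrh (log2 fold change 0.27, limma adjusted p = 0.0297). In complex IV, 2 of 12 rose, Ndufa4 and Cox5a. Ndufa4, which was named for complex I and is known as a subunit of complex IV, averaged 462 ± 27.2 normalized counts in knockout libraries (SD, n = 3) and 304 ± 13.8 in control libraries (SD, n = 4), a log2 fold change of 0.60 (SE 0.08, limma adjusted p = 0.00178). In ATP synthase, 2 of 17 rose, Atp5d and Atp5e, which lie in the central stalk, with log2 fold changes of 0.49 (SE 0.07, limma adjusted p = 0.00269) and 0.28 (SE 0.09, limma adjusted p = 0.0490). In complex II, 0 of 4 were called. Of the 7, Atp5d, Ndufa4 and Ndufb11 were called in every fit that leaves out 1 library. The count of 7 was 3 without knockout library 2 and 4 without control library 2. Without control libraries 1 and 4 it was also 3, namely Atp5d, Atp5e and Ndufa4, and Ndufb11 missed the threshold (adjusted p = 0.0714).

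Per complex, the median log2 fold change was 0.12 for the nuclear subunits of complex I, 0.19 for complex III, 0.16 for complex IV and 0.15 for ATP synthase, and 0.07 for complex II. The assembly factors moved in both directions, where 10.4% of all genes tested were called higher and 11.3% lower. Of 13 complex I assembly factors, Ndufaf7, a methyltransferase, rose (log2 fold change 0.52, limma adjusted p = 0.0270) and Ndufaf4 fell (log2 fold change -0.37, limma adjusted p = 0.0467). Of 15 tested complex IV assembly factors, Coa7 fell (log2 fold change -0.61, SE 0.12, limma adjusted p = 0.00993) and 0 rose. Coa7 was called in each of the 7 fits that leave out 1 library, Ndufaf7 in 4 and Ndufaf4 in 0. Without control libraries 1 and 4 none of these 3 was called, with adjusted p of 0.0647 for Coa7, 0.0673 for Ndufaf7 and 0.158 for Ndufaf4.

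**Figure D5:**
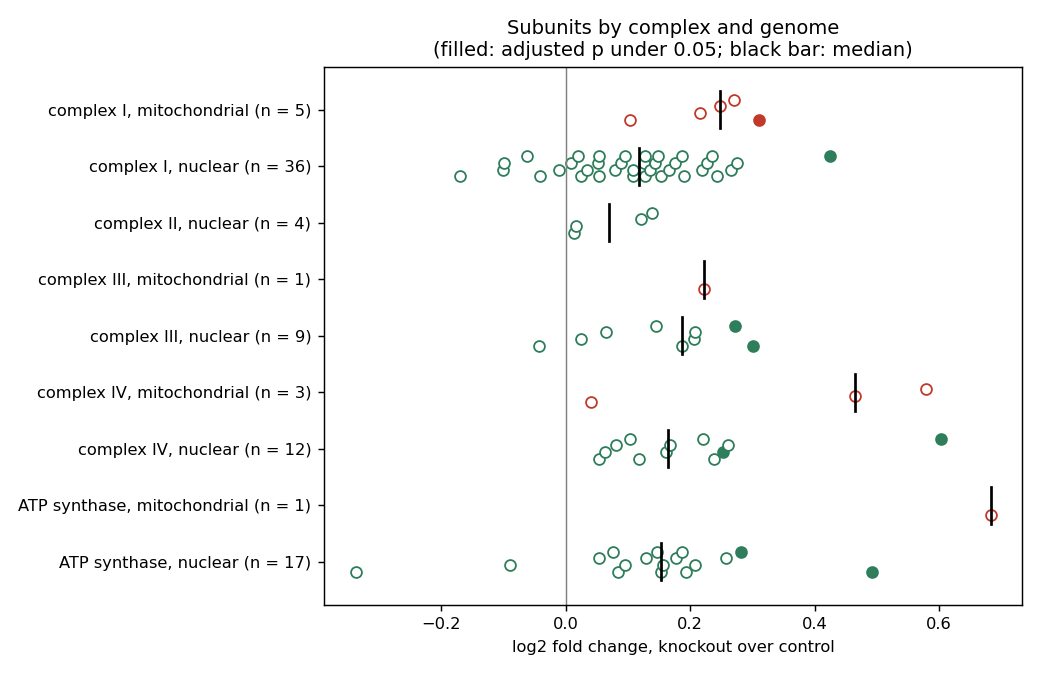
Log2 fold change of knockout over control for each tested subunit, by complex and by the genome that encodes it (red mitochondrial, green nuclear), with the median as a black bar. Filled circles have a limma adjusted p under 0.05. Of the red circles 1 of 10 is filled (mt-Nd6), and of the green ones 7 of 78, all of them right of 0.

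The genes whose levels across the 7 libraries were most like the summed members were Pex16, Got1, Alox5, Ndufa1 and Tspyl1. Likeness was Pearson's r between log2(normalized count + 1) and the log2 of the summed members, over 9119 genes with a mean of at least 100. It was 0.96 for Pex16, a factor of peroxisome assembly, 0.96 for Got1, the cytosolic aspartate aminotransferase, and 0.96 for Alox5, the lipoxygenase that starts leukotriene synthesis. It was 0.96 for Ndufa1, a nuclear subunit of complex I, and 0.95 for Tspyl1, and 47 genes passed 0.9. None of the 5 was called by limma, the lowest adjusted p being 0.0652 for Alox5, and all 5 overlapped between genotypes. With 7 libraries and this many genes these values are a description only.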

How the data were processed

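RNA of BAL cells was sequenced in 7 libraries, grouped by genotype from the labels (3 knockout, 4 control). Per the labels' protocols, RNA was extracted with Trizol and libraries were made with a KAPA mRNA kit. The submitters' processing notes name the tools cutadapt 1.15, STAR 2.5.3a, HTSeq and DESeq2 and the build GRCm38 (mm10). The strand setting, annotation, read length and rule for reads with several matches were not given in the sources used here.

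In the 1 table that the authors deposited, the signal of a gene in a library is its read count over that library's size factor. The authors' base mean (a signal), log2 fold change with standard error, test statistic (a score) and p-value, raw and adjusted, stand beside it per the file headers. Each library's values were multiples of 1 step. Dividing by the step gave back the whole reads, and 100% of the values came out whole within 0.01 of a read. The planned edgeR test on raw counts gave way to limma, since the table holds normalized values.

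limma 3.58.1 (R 4.3.3, eBayes with trend) was fitted to log2(normalized count + 1) of the 12963 genes with a mean of at least 10, which understates the change of low genes. The threshold was a Benjamini-Hochberg adjusted p of 0.05 over all of them. All 10 members passed the filter. edgeR 4.0.16 (quasi-likelihood, 1365 genes higher and 1497 lower) and DESeq2 1.42.0 (1414 higher and 1611 lower) were run on the recovered reads as alternatives, beside 1352 higher and 1461 lower with limma. Other alternatives were 3 scalings, pseudocounts of 0.5 and 10, no filter or a mean of 50, a replicate block, and libraries left out. The fits were tested on simulated data. Single values were compared with 2-sided exact permutation tests over all 35 ways to draw 3 of the 7 libraries.

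Named genes are all members, the other mitochondrially encoded genes of the table, Ntn1, up to 2 called genes per direction with the smallest p in each of 15 other lists, and the 5 genes most like the summed members. Lyz2, Polrmt, Tfam, Ppargc1a, the nuclear copies and the 2 RNAs without a poly(A) tail were added outside this rule. The members and lists were chosen with earlier results of these data known. Gene positions and sequences are from GENCODE M21, which matched 99.81% of the gene IDs.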

Additional observations from a re-analysis of the deposited data

Results flagged for a closer look

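In 16 sets of 4 control values looked at, 2 had 1 library far from the other 3, where chance alone gives about 1 in 20. For mt-Rnr2, control library 2 was low, at 12204 normalized counts against 13510.1 to 13730.3 in the other controls, and the gap took 0.856 of the range of the group. For mt-Nd5, control library 1 was high, at 25776 against 23193 to 23631 in the other controls, and the gap took 0.831 of the range. Without control library 1 the log2 fold change of mt-Nd5 was 0.28, against 0.25 with it, and mt-Nd5 was again not called (limma adjusted p = 0.107).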

How the results depend on the processing

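The count of members that rose (1) and fell (0) was the same with 3 other scalings, 2 other pseudocounts, 2 other filters (7 members are tested at a mean of at least 50) and edgeR. It moved to 2 higher with DESeq2, to 0 with control libraries 1 and 4 left out and to 0 with control libraries 2 and 3 left out, and ranged from 0 to 1 over the 7 fits that leave out 1 library. Over all genes tested, limma called 10.4% higher and 11.3% lower. The 15 other lists include the 78 nuclear subunits tested, of which 7 rose and 0 fell. Of the 15 other lists in all, 10 genes rose and 7 fell. Without control libraries 1 and 4 these counts were 4 and 1, and without control libraries 2 and 3 they were 5 and 0. Both counts of genes that rose include Ppargc1a, which was below the filter in the main fit and is not among the 10. Of those 10, Atp5d, Atp5e and Ndufa4 were still called without control libraries 1 and 4. Without control libraries 2 and 3, Atp5d, Ndufa4, Ndufb11 and mt-Tp were still called. Over the fits that leave out 1 library the counts ranged from 4 to 10 and from 2 to 4. The cause was not tested. One direction reversed among the members, that of mt-Co1, at -0.032 (limma adjusted p = 0.918) without control libraries 2 and 3. The replicate numbers of the sample titles showed no pairing, since the correlations of the deviations of same-numbered libraries were -0.229, -0.0253 and -0.188. The column headers number knockout libraries 1, 2 and 3 otherwise, as Ntn1_KO2, Ntn1_KO3 and Ntn1_KO4. Paired by those headers with control libraries 2, 3 and 4, the correlations were -0.077, -0.285 and 0.076. A fit with the replicate number of the title as a block called 0 members higher, and 2 higher and 1 lower of the other lists. In it control library 4 has no partner and carries no weight, and no block by the header numbers was fitted. With another pseudocount the permutation p was 0.257 for the ratio of mt-Nd6 to mt-Nd5 and 0.0571 for Ntn1, and 0.0857 for Ntn1 scaled by total reads. With libraries left out or with the block these permutation tests cannot reach 0.05, so they say nothing of stability. The median log2 fold change of all genes moved to at most 0.04 under another scaling. mt-Co2, mt-Co3 and mt-Atp6, with 14 to 66 reads in a library, are limited by depth.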

Other observations

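The make-up of the member RNA differed between the libraries. mt-Co1 took 43.6%, 43.5% and 43.1% of the summed normalized count of the members in knockout libraries 1, 2 and 3, against 45.2%, 46.6%, 47.0% and 46.5% in control libraries 1, 2, 3 and 4, without overlap. Of the 10 shares, 1 was lower (mt-Co1), 2 were higher (mt-Nd4 and mt-Co3) and 7 overlapped between genotypes. By normalized count, 17.4% of all genes tested lay higher without overlap and 16.3% lower. The shares of a library add up to its whole, so a lower share of mt-Co1 raises others and they are not independent. mt-Nd4 took 6.89%, 7.29% and 6.96% in knockout libraries, against 6.88%, 6.34%, 6.00% and 6.48% in control libraries, also without overlap, with control library 1 close to knockout library 1. mt-Co3 took 0.0238% to 0.0264% in knockout libraries and 0.0129% to 0.0231% in control libraries. Its share rests on 27 to 62 reads in a library, and 99.9% of its windows have a nuclear copy. The shares of mt-Nd5 were 12.4% to 13.4% in knockout libraries and 11.5% to 12.6% in control libraries, and overlapped. These shares need no scaling between libraries. They were looked at after the values were seen and were not tested.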
